A study of Mus musculus with 6 samples.

Results

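The genes described here encode 10 integrin chains, the alpha chains Itga1, Itga2, Itga3, Itga5, Itga6 and Itgav and the beta chains Itgb1, Itgb3, Itgb4 and Itgb5. They are 10 of the 21057 mouse genes with a RefSeq row in the RNA-seq tables, and each is represented by its RefSeq row with the most counts over the 6 libraries. The list is set by gene name and was chosen by the values of 1 gene, Itga1, whose RPKM had been seen to rise strongly with SMC1 and CAPH2 knockdown, so the changes of Itga1 in those comparisons are given as a description and without a test.

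RNA was measured in V6.5 murine embryonic stem cells (ESCs), an established mouse line grown on irradiated fibroblast feeder cells, after infection with lentiviral small hairpin RNA (shRNA) constructs. Selection with puromycin began 24 h after infection, at 0.5 µg/ml for 48 h and then at 1 µg/ml for 48 h per the sample labels, while the methods of the study give a single and higher concentration. Those methods also describe depleting feeder cells by a short incubation in a dish ahead of the infection. The control shRNA against GFP had 1 library, the shRNA against SMC1, a cohesin subunit, had 1 library, and CAPH2, a condensin II subunit, and SMC2, a subunit shared by condensin I and condensin II, had 2 libraries each, 1 for each of 2 hairpins. All groups carried a hairpin vector and the selection, and none was left uninfected. Nothing in the labels says that the libraries of a target came from separate cultures beyond the different hairpins, so a p-value below measures the spread between hairpin libraries.

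Integrins are cell-surface receptors made of 1 alpha and 1 beta chain, and the pair sets which ligand is bound. The beta chain Itgb1 pairs with most of the alpha chains listed here. Itga1 and Itga2 with Itgb1 bind collagens, Itga3 and Itga6 with Itgb1 bind laminins, and Itga5 with Itgb1 binds fibronectin. Itgav pairs with Itgb1, Itgb3 or Itgb5 and binds ligands with an RGD motif such as vitronectin, and Itga6 with Itgb4 forms the laminin receptor of hemidesmosomes in epithelia. Receptors of the beta-1 class attach murine ESCs to laminin and fibronectin.

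The total count over all rows was 25467427 to 31337313 per library. Levels are given as RPKM, reads scaled to the exon length of a transcript and to the reads of its library. The targeted transcripts fell in the libraries labelled for them, by 1.33 on the log2 scale for Smc1a with SMC1, by 1.84 for Ncaph2, which encodes CAPH2, with CAPH2 and by 0.49 for Smc2 with SMC2, each against the GFP library. Transcripts of the other targets moved too. Ncaph2 was at -0.57 with SMC1 and -0.32 with SMC2, Smc2 was at 0.65 with SMC1 and 0.64 with CAPH2, and Smc1a was at 0.37 with CAPH2 and 0.28 with SMC2. The SMC1 library stood apart in its cell-state markers. The summed RPKM of 10 ESC markers was 3843 with GFP, 3193 to 3391 with CAPH2 and SMC2, and 2087 with SMC1. The summed RPKM of 15 fibroblast markers was 73.6 with GFP, 183 with SMC1, 121 and 83.3 with CAPH2 and 98.1 and 84.7 with SMC2. Of the 12 fibroblast markers with a mean of at least 50 counts, 12 were higher in the SMC1 than in the GFP library, against 6104 of 12263 genes at that minimum. Among these markers, the RPKM of Col1a1 was 20.8 with GFP, 39.4 with SMC1, 36.1 and 22.8 with CAPH2 #1 and #2, and 25.3 and 22.5 with SMC2 #1 and #2. Its rise was thus not particular to the SMC1 library. Dcn had 1 count with GFP and 19 with SMC1, and Lum had 1 with GFP, 5 with SMC1 and 0 in both CAPH2 libraries. Thy1 was at an RPKM of 8.52 with GFP, 10.1 with SMC1 and 5.36 to 7.04 in the CAPH2 and SMC2 libraries. The part of feeder cells in the integrin values below was not tested. In RNA from a whole culture, fewer cells of a type and less RNA per cell cannot be told apart.

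The genes that rose by at least 1 on the log2 scale in the SMC1 library were Itga1, Itga2, Itgav and Itgb1, and the 250 bases before the start of each are given because these genes moved together in that library. The sequences are of the mm9 build, read from the reference genome in the direction of transcription, 5′ to 3′, up to the base before the start of the RefSeq row. Capitals mark matches on either strand to GGGCGG, the core of a GC box, or GGAATG, the core motif of TEAD factors.

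Itga1 (chr13:115892173-115892422, minus strand): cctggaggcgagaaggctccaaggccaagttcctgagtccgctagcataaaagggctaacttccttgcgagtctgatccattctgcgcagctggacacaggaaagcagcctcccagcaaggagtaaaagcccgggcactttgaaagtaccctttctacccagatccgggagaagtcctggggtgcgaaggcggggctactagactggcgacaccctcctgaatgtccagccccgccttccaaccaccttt
Itga2 (chr13:115722250-115722499, minus strand): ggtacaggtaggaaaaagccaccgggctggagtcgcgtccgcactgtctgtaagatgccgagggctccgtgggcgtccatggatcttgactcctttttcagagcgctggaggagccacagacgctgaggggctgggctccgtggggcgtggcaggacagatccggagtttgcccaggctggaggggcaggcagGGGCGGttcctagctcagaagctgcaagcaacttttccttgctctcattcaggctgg
Itgav (chr2:83564304-83564553, plus strand): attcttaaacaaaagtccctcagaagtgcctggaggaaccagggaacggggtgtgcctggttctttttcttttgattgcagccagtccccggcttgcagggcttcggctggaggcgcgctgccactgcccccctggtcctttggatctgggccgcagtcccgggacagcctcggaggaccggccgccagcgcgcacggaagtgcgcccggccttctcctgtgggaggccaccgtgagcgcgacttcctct
Itgb1 (chr8:131209304-131209553, plus strand): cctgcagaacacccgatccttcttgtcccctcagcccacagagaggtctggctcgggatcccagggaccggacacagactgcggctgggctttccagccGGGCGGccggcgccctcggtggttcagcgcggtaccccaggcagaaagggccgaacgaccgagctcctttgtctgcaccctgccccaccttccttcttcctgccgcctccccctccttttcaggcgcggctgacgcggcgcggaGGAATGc

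The windows of Itga1 and Itgav held neither motif, that of Itga2 held 1 GC box, and that of Itgb1 held 1 GC box and 1 GGAATG. Over all 10 genes, GGGCGG was in 7 windows, against 45.7% of 21057 windows of the same length, and GGAATG was in 1, against 11%. TATAAA (11.5% of all windows), CCAAT (34.8%), TGANTCA, the motif of AP-1 (5.82%), and the CArG box of serum response factor (1.24%) were searched on both strands and matched in 0 of the 10 windows. The number of CpG pairs in the 250 bases was 10 for Itga1, 13 for Itga2, 18 for Itgav and 21 for Itgb1, and it was highest for Itga6, at 32. These motifs were chosen after expression values had been seen, and the matches describe letters only.

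In the GFP library the 10 transcripts covered a wide range of levels, and Itgb1 was the most abundant. Its RPKM was 85.8. Itga6 followed at 34.95, Itga5 at 27.9, Itgb5 at 26.0, Itga3 at 18.6 and Itgav at 7.72. Itgb4 at 2.10, Itgb3 at 1.91, Itga1 at 0.318 and Itga2 at 0.022, which is 2 counts, were the lowest. The neighbours Itga5 and Itgb5 ranged from 25.5 to 29.7 and from 24.1 to 26.5 over the 4 CAPH2 and SMC2 libraries. These ranges overlapped, although Itga5 was the higher within every library. Itgb4, at 1.84 to 2.45, and Itgb3, at 1.49 to 1.87, overlapped as well. Itgb4 was the higher within each library but that of SMC1, and the order of these neighbours was not tested. By rank, Itga6 was 2 with GFP and 4 with SMC1, Itga5 was 3 and 2, and Itga3 was 5 and 3.

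**Figure D1:**
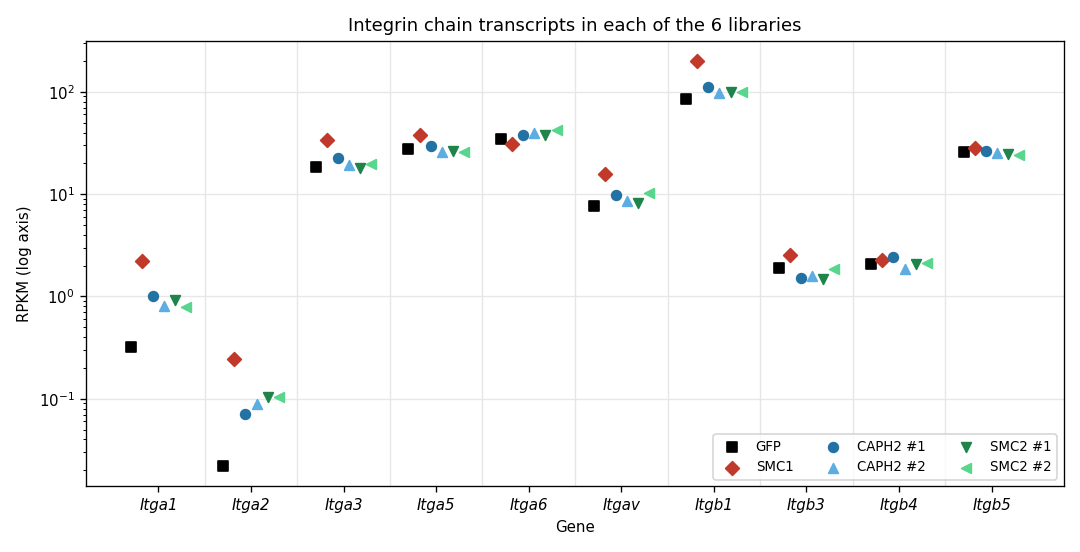
RPKM on a log axis of the 10 integrin chain genes in each of the 6 libraries, with 1 point per library. The SMC1 library lies above the 5 others for 8 of the 10 genes, with Itga6 and Itgb4 as the exceptions, and Itga1 and Itga2 lie lowest.

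The first question was how the level of each chain in the SMC1 library compared with the GFP library. Changes are log2 ratios of RPKM, with 95% exact binomial intervals from the counts, which cover counting error only, since neither library has a replicate. A rise of at least 1 was seen for 4 of the 10 genes, against 12.5% of the 14513 genes with at least 50 counts over the 6 libraries, and a fall of at least 1 for 0 of 10, against 8.91%. These counts hold Itga1, whose rise chose the list, and Itga2, whose 55 counts over the 6 libraries include 20 from SMC1 and would be 35, under the minimum of 50, without that library, so nothing is read from the counts of genes. An interval above 0 was found for 8 of the 10 genes, against 38.3% of genes, and an interval below 0 for 1 of 10, against 35.6%. SMC1 was the highest of the 6 libraries for 8 of the 10 genes, against 37.6% of genes. Without Itga1 and Itga2, 2 of the remaining 8 genes rose by at least 1, 6 of 8 had an interval above 0, 1 of 8 had an interval below 0, and SMC1 was the highest library for 6 of 8.

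Among the collagen receptors, Itga1 (NM_001033228, chromosome 13 from 115748289 to 115892172, minus strand, mm9) had an RPKM of 0.318 with GFP, 2.23 with SMC1, 1.02 and 0.799 with CAPH2 #1 and #2, and 0.913 and 0.786 with SMC2 #1 and #2. The GFP library was thus the lowest of the 6 and the SMC1 library the highest. The log2 change with SMC1 was 2.81, from 41 to 256 counts. The log2 change of the averaged RPKM was 1.51 for CAPH2, with an SD of 0.25 between 2 hairpins. For SMC2 it was 1.42, with an SD of 0.15 between 2 hairpins. Because Itga1 chose the list, these values are a description, and its counting intervals are not read as a test.

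Itga2 (NM_008396, chromosome 13 from 115626120 to 115722249, minus strand) encodes the alpha chain of the other collagen receptor, and it was near the limit of detection. It had 2 counts with GFP, 20 with SMC1, 7 in each CAPH2 library, and 10 and 9 with SMC2. The ratio of the SMC1 to the GFP library was 11.2, with a counting interval of 2.72 to 98.8. Of the 4 CAPH2 and SMC2 intervals on the log2 scale, that of SMC2 #1 alone lay above 0, at 0.026 to 5.49, so a difference from GFP was not detectable at this depth for the other 3.

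Itga1 and Itga2 are neighbours on the same strand of chromosome 13, 26.0 kb apart, and 2 further genes there were read after values had been seen. Pelo, a ribosome rescue factor whose gene lies within an intron of Itga1, had an RPKM of 28.6 with GFP, 33.1 with SMC1 and 24.8 to 28.9 in the CAPH2 and SMC2 libraries. Mocs2, a molybdenum cofactor synthesis gene 6.5 kb beyond Itga2, had an RPKM of 10.4 with GFP, 11.7 with SMC1 and 9.92 to 13.5 in the other 4. Neither differed between SMC1 and GFP by as much as Itga1 or Itga2, a contrast that was not tested.

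Itgb1 (NM_010578, chromosome 8 from 131209554 to 131257479, plus strand), the common beta chain, had an RPKM of 85.8 with GFP, 201 with SMC1, 111 and 96.8 with CAPH2, and 99.3 and 98.7 with SMC2. All 5 knockdown libraries were above the GFP library, and the SMC1 library was above the rest. The log2 change was 1.23 with SMC1 (1.19 to 1.26), 0.28 for CAPH2, with an SD of 0.14 between 2 hairpins, and 0.21 for SMC2, with an SD of 0.0065 between 2 hairpins.

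Itgav, the alpha chain of the RGD receptors, had an RPKM of 7.72 with GFP, 15.8 with SMC1, 9.88 and 8.47 with CAPH2, and 8.19 and 10.4 with SMC2. As for Itgb1, GFP was the lowest library and SMC1 the highest. The log2 change was 1.04 with SMC1 (0.93 to 1.14) and 0.086 to 0.43 in the other 4 libraries, where the interval of SMC2 #1 included 0. Its partner Itgb3 had an RPKM of 1.91 with GFP, 2.565 with SMC1, 1.53 and 1.58 with CAPH2, and 1.49 and 1.87 with SMC2. SMC1 thus lay above GFP and the other 4 below it, where the smallest log2 change was -0.031, with SMC2 #2. The partner Itgb5 differed by less, at 26.0 with GFP, 28.2 with SMC1 and 24.1 to 26.5 in the other 4 libraries.

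Among the laminin and fibronectin receptors, Itga3 had an RPKM of 18.6 with GFP, 33.6 with SMC1, 22.4 and 19.1 with CAPH2, and 17.9 and 19.5 with SMC2. The log2 change with SMC1 was 0.85 (0.77 to 0.94). Itga5 had an RPKM of 27.9 with GFP, 37.7 with SMC1, 29.7 and 25.5 with CAPH2, and 26.3 and 25.8 with SMC2. The SMC1 library was the highest for both genes, whereas the other 4 libraries lay on both sides of GFP.

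Itga6 went the other way. Its RPKM was 34.95 with GFP, 30.7 with SMC1, 38.0 and 39.7 with CAPH2, and 37.7 and 42.1 with SMC2, so that SMC1 was the lowest library and all 4 condensin subunit knockdowns lay above GFP. The log2 change with SMC1 was -0.19 (-0.26 to -0.11), and scaling to the ERCC spike-ins, synthetic RNAs added before library preparation, turned it to 0.68. That scaling raised the median of all genes by 0.865 in this comparison, and it changed the direction of none of the other 9 genes. Itgb4, which pairs with Itga6, had an RPKM of 2.10 with GFP, 2.25 with SMC1, 2.45 and 1.84 with CAPH2, and 2.08 and 2.14 with SMC2. All 5 of its counting intervals included 0.

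**Figure D2:**
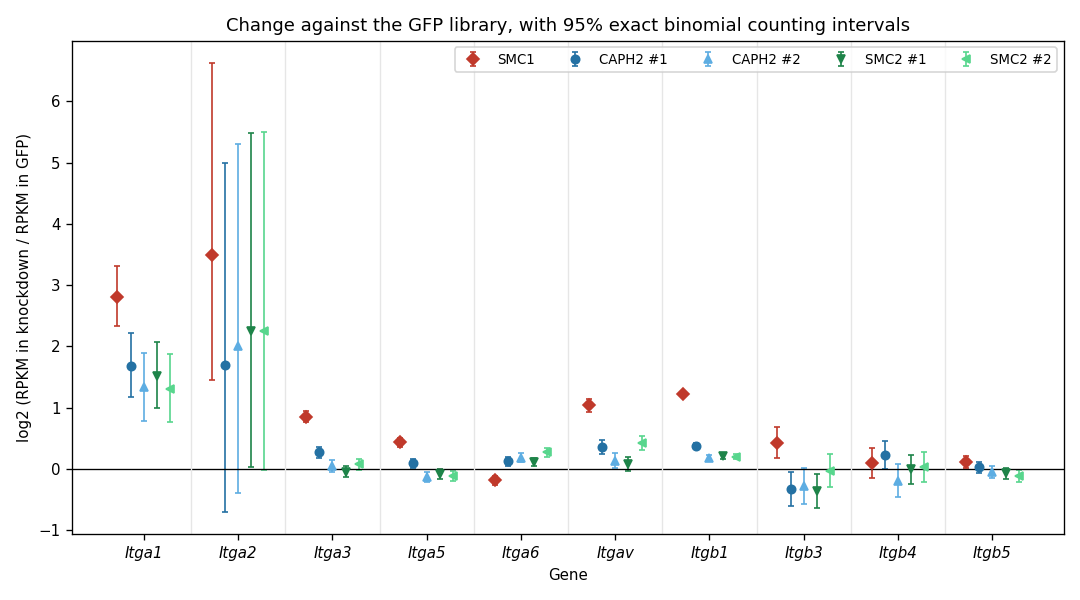
Log2 ratio of RPKM in each knockdown library over the single GFP library for the 10 genes, with bars for the 95% exact binomial counting interval. Itga1, whose changes with SMC1 and CAPH2 chose the list, lies above 0 in all 5 libraries, at 2.81 for SMC1. The intervals of Itga2 are wide because GFP had 2 counts, and Itga6 is below 0 in the SMC1 library alone.

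With CAPH2 and with SMC2, the average over hairpins rose by at least 1 for 2 of the 10 genes, Itga1 and Itga2, against 2.34% and 1.66% of genes. Nothing is read from these counts either, since both genes entered them through the SMC1 or CAPH2 values, and without them the count was 0 of 8 for each target. Among the 10 genes, 5 were above the GFP level in all 4 of these libraries, Itga1, Itga2, Itga6, Itgav and Itgb1, against 32.9% of genes, and 3 of 8 were without Itga1 and Itga2. The comparisons with SMC1, CAPH2 and SMC2 all share the single GFP library, so they are not independent of each other. Itga1 and Itga2 have an RPKM under 1 with GFP. Of the 8 genes at or over 1, 2 rose by at least 1 with SMC1, against 6.49% of the genes over that minimum, and 0 of 8 did with CAPH2 or SMC2, against 0.427% and 0.222%.

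The comparison of the SMC1 library with the mean of the CAPH2 and SMC2 libraries does not use the GFP library. It was fitted across 14545 genes with edgeR's quasi-likelihood test and Benjamini-Hochberg adjustment, in which the lone SMC1 library was assumed to vary like the hairpin libraries. Of the 9 genes given a p-value, 7 passed an adjusted p of 0.05, against 43.6% of all genes, with 6 higher, against 22.9%, and 1 lower, against 20.7%, so that a call in this comparison was common. Itgb1 was higher by 0.96 ± 0.077 on the log2 scale (SE; edgeR adjusted p = 2.21e-05). Itga3 was higher by 0.75 ± 0.094 (edgeR adjusted p = 2.53e-04), Itgav by 0.76 ± 0.12 (edgeR adjusted p = 0.00106) and Itga5 by 0.47 ± 0.088 (edgeR adjusted p = 0.00235). Itgb3 was higher by 0.65 ± 0.16 (edgeR adjusted p = 0.00867), and Itga6 was lower by a log2 difference of -0.38 ± 0.087 (edgeR adjusted p = 0.00679). The estimate for Itga1 was 1.32 ± 0.17. The counts of genes called include Itga2, which entered the test through its counts in the SMC1 library and SMC2 #1 alone. Nothing is therefore read from these counts.

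Itga2 was called higher by 1.41 ± 0.43 (edgeR adjusted p = 0.0257), but it passed the filter of 10 counts in 2 libraries through the SMC1 library and SMC2 #1 alone. The call was lost with DESeq2 (adjusted p = 0.307) and without SMC2 #2 (edgeR adjusted p = 0.0538), and without SMC2 #1 the gene could not be tested. Itgb4, at 0.057 ± 0.17 (edgeR adjusted p = 0.806), and Itgb5, at 0.15 ± 0.080 (edgeR adjusted p = 0.157), did not pass. These calls also depend on the scaling. When the libraries were scaled to the ERCC counts, an alternative added after seeing the data, 2 of the 9 genes were called, Itgb1 at 1.37 ± 0.46 (edgeR adjusted p = 0.0332) and Itga2 at 1.84 ± 0.65 (edgeR adjusted p = 0.0496), against 9.65% of genes, and the estimate of Itga6 turned to 0.041 ± 0.51 (edgeR adjusted p = 0.973).

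SMC2 was compared with CAPH2 on 2 libraries each, and no difference was called for any of the 9 integrin genes tested, against 0.00694% of 14412 genes, which is 1 gene. The count was 0 of 9 also at an unadjusted p under 0.05, which 3.04% of all genes passed, and 0 of 9 with DESeq2. The estimates ran from -0.14 ± 0.089 for Itga3 to 0.12 ± 0.15 for Itgb3 (SE; edgeR adjusted p = 0.998 for each gene tested other than Itga1). Itga1 was at -0.095 ± 0.19, given as a description because its CAPH2 values helped choose the list. It is among the 9 genes counted, and its place there is not read as a test. Itga2 did not pass the filter on low counts. These standard errors leave room for small differences, and with ERCC scaling all 9 estimates lay above 0, at 0.095 to 0.39, again with 0 called. The values do not show that the hairpins against the 2 targets act alike.

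**Figure D3:**
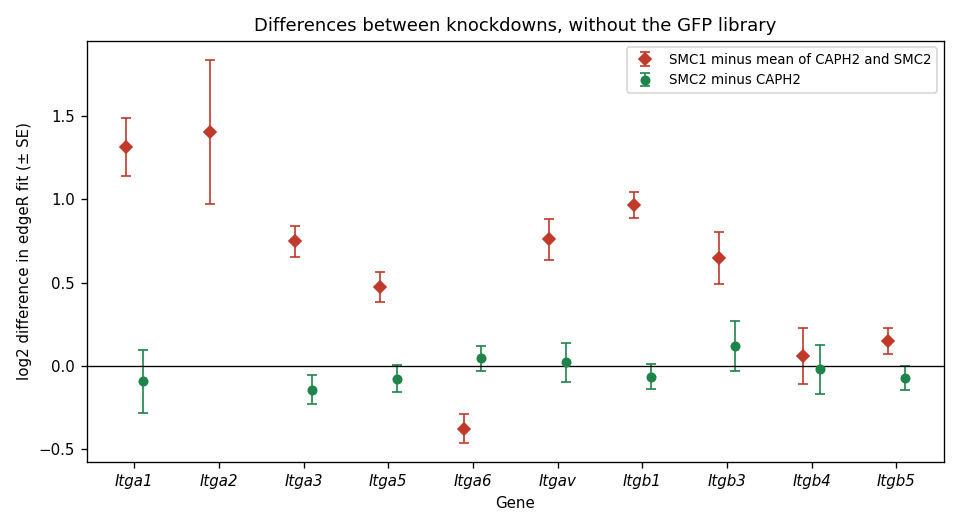
Log2 differences from the edgeR fits that leave out the GFP library, with bars for 1 SE, for SMC1 minus the mean of CAPH2 and SMC2 and for SMC2 minus CAPH2. The first lies above 0 for all genes but Itga6, at -0.38, with Itgb4 within 1 SE of 0, and the second lies between -0.14 and 0.12 for the 9 genes fitted.

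Because RPKM is per length, the chains could also be set against each other, a calculation chosen after values had been seen. The RPKM of Itgb1 over the sum of the 12 alpha chains that can pair with it was 0.888 with GFP, 1.60 with SMC1 and 0.929 to 1.03 in the CAPH2 and SMC2 libraries. Itga6 made up 36.2% of this alpha sum with GFP, 24.4% with SMC1 and 35.2% to 39.6% in the other 4. Itga3 went from 19.2% to 26.7% between GFP and SMC1, Itgav from 7.99% to 12.6% and Itga1 from 0.329% to 1.77%, so the laminin chain Itga6 lost the first place among alpha chains to Itga5. Among the 4 beta chains described, Itgb1 made up 74.1% of the RPKM with GFP and 85.9% with SMC1.

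Of 18 further genes named as integrin chains or chain-like, 14 were tested in the comparison of SMC1 with the CAPH2 and SMC2 libraries, where 2 were higher and 3 lower. At the shares of all genes in this comparison, 22.9% higher and 20.7% lower, these counts are near or below the background and are not a result about those chains. Itgb7, a leukocyte beta chain that pairs with Itga4, fell from an RPKM of 9.87 with GFP to 1.01 with SMC1 and was 6.40 to 8.34 in the other 4 libraries (edgeR adjusted p = 1.19e-05 for SMC1 against those 4). Itgal, a leukocyte alpha chain, was at 1.22 with GFP, 0.200 with SMC1 and 0.760 to 1.12 in the others (edgeR adjusted p = 9.74e-04), and Itga9 was at 3.53, 1.32 and 2.98 to 3.53 (edgeR adjusted p = 9.32e-05). Itga11, a collagen receptor chain, was called higher (edgeR adjusted p = 0.0146), with a log2 change of 1.14 against GFP. Itga8 was higher than GFP in all 5 libraries, by 1.23 with SMC1, 1.14 with CAPH2 and 1.08 with SMC2 on the log2 scale, and did not differ between SMC1 and the other knockdowns beyond the spread (edgeR adjusted p = 0.815). Itgb8, which pairs with Itgav, is named after its values were seen, as its mean was under 50 counts, and it had 14 counts with GFP, 113 with SMC1 and 19 to 41 in the other 4 (edgeR adjusted p = 1.69e-04).

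**Figure D4:**
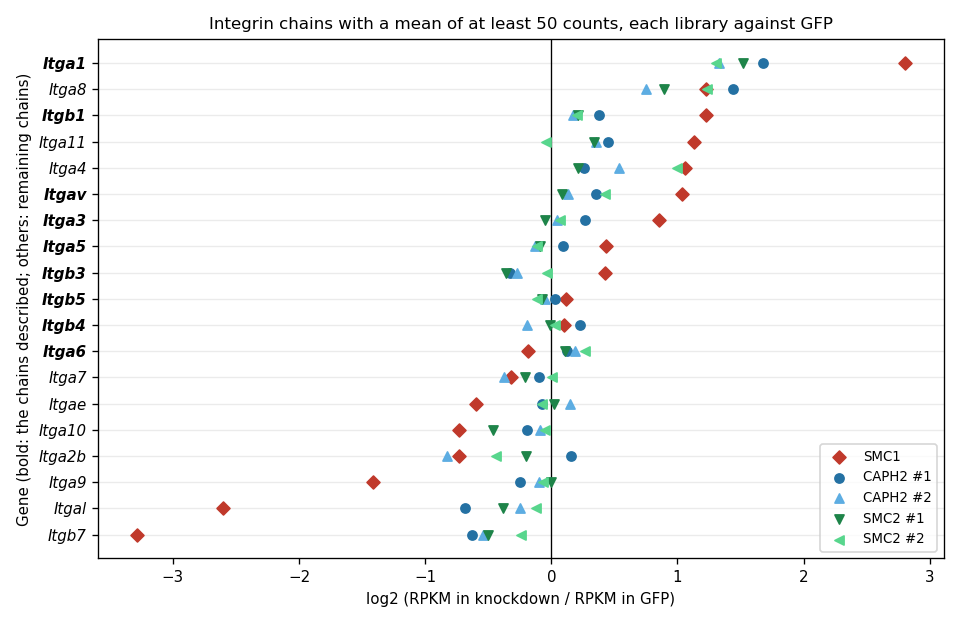
Log2 ratio of RPKM over the GFP library for the 19 integrin chain genes with a mean of at least 50 counts, ordered by the SMC1 value, with the chains described in bold and 1 point for each knockdown library. SMC1 values run from 2.81 for Itga1 to -3.29 for Itgb7, and the 5 comparisons share 1 GFP library.

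Integrin ligands were called higher more often than lower in the SMC1 library, on the TMM scaling, and list counts were not computed with ERCC scaling. Of 27 ligand genes tested against the CAPH2 and SMC2 libraries, 15 were higher and 6 lower at an edgeR adjusted p under 0.05, against 22.9% and 20.7% of all genes, so the lower count is near the background. The median log2 change of SMC1 against GFP was 0.79, beside -0.003 for all genes. Fbn1, a microfibril protein with an RGD motif, had an RPKM of 1.59 with GFP, 7.27 with SMC1 and 2.42 to 3.23 in the other 4 libraries. Thbs1, thrombospondin, was at 40.2 with GFP and 152 with SMC1, and Ccn2, a matricellular protein, at 40.1 and 138. Icam1, a ligand of leukocyte integrins, went from 37.8 to 15.6, and Lama1, a laminin alpha chain of the early embryo, from 13.1 to 6.47. The list shares Col1a1, Col1a2 and Col3a1 with the fibroblast markers. It was chosen with earlier results of these data known, so its counts are a description.

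Of 30 integrin activators, adaptors and kinases, 15 were higher and 4 lower in the same comparison, against 22.9% and 20.7% of all genes. The median log2 change of SMC1 against GFP was 0.41 for this list. The lists in this paragraph were likewise chosen with earlier results known, and their counts are a description. The kindlins, which activate integrins through the beta tail, did not move alike. Fermt1 had an RPKM of 0.522 with GFP, 5.71 with SMC1 and 0.718 to 1.35 in the other 4 libraries (edgeR adjusted p = 3.15e-05), Fermt2 was at 50.6, 54.3 and 51.7 to 56.1 (edgeR adjusted p = 0.848), and Fermt3, the form of blood cells, was at 2.53, 0.824 and 1.76 to 2.45 (edgeR adjusted p = 0.00209). Tgfb1i1, a paxillin relative, went from 2.87 with GFP to 12.9 with SMC1 and Nedd9, a docking protein, from 0.498 to 2.11, whereas Parvb, a partner of integrin-linked kinase, went from 32.3 to 11.5. Of 13 inhibitors, membrane partners and hemidesmosome genes, 7 were higher and 3 lower, against the same shares, and the lower count is near the background. Dab2, which binds beta tails, had a log2 change of 1.45 with SMC1 against GFP, and Cd9, a tetraspanin partner, fell from an RPKM of 159 to 60.1.

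Markers of some other cell types moved in the same comparison, and their part in the integrin values was not tested. Earlier results were known when these marker lists were chosen, so their counts are a description. The shares of all genes were again 22.9% higher and 20.7% lower. The count of endoderm markers called higher and that of trophectoderm markers called lower are near these shares and are not a result about those markers. Of 13 fibroblast markers tested, 9 were higher and 0 lower, with Twist1 going from an RPKM of 5.33 with GFP to 18.5 with SMC1, of 8 trophectoderm markers 5 were higher and 2 lower, and of 9 extraembryonic endoderm markers 2 were higher and 0 lower. Of 10 ESC markers 0 were higher and 9 lower. The summed RPKM of the 10 integrin genes was 205 with GFP, 354 with SMC1, 243 and 219 with CAPH2, and 219 and 226 with SMC2.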

How the data were processed

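RNA-seq tables of 6 libraries were analysed. The submitters' processing notes name Bowtie and mm9. Raw counts of exonic reads per RefSeq transcript were deposited by the authors, and an exon shared by isoforms counts for each of them. The RPKM values deposited by the authors divide each count by the exon length and by the library's reads. Of 26073 RefSeq rows, 25353 were matched to a symbol by accession and 572 through overlapping GENCODE genes (mm9), and 148 had none. All 10 integrin genes matched by accession, and Itgb4 and Itgb5 had 2 rows each.

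Changes against GFP are log2 ratios of RPKM with no pseudocount, and a gene at 0 in either library took a floor of 3 counts. Differences between knockdowns were fitted to counts, on 1 row per gene, where 2 or more libraries held at least 10 counts. The test was the quasi-likelihood test of edgeR 4.0.16 with TMM scaling and Benjamini-Hochberg adjusted p-values (threshold 0.05), and DESeq2 1.42.0 was an alternative, in R 4.3.3. Intervals used scipy 1.17.1 in Python 3.11.15.

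The integrin genes and the gene lists were chosen with earlier results of these data known. The text names all 10 genes, the knockdown targets and, from each list, up to 3 genes with the largest SMC1 change in each direction among those with a mean of at least 50 counts. Fermt2, Col1a1, Dcn, Lum, Thy1, Pelo, Mocs2 and Itgb8 were named after their values were seen. The minimum of 50 counts for the background share of genes was set after seeing the data.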

Additional observations from a re-analysis of the deposited data

Results flagged for a closer look

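Of the integrin genes, 7 differed between the SMC1 library and the CAPH2 and SMC2 libraries in the edgeR test of the difference itself, with Benjamini-Hochberg adjustment over all genes. The log2 differences were 1.41 for Itga2, 0.75 for Itga3, 0.47 for Itga5, -0.38 for Itga6, 0.76 for Itgav, 0.96 for Itgb1 and 0.65 for Itgb3. Nothing is read from the number of these genes, since Itga2 is among them. The SMC1 side is 1 library, and 43.6% of all genes were called in the same comparison. With ERCC scaling 2 of the 7 were called, Itga2 and Itgb1, and Itga6 turned to 0.041. Itga2 rests on 20 counts in the SMC1 library and 7 to 10 in the others, passed the filter on low counts through SMC1 and SMC2 #1 alone, and was not called with DESeq2 (adjusted p = 0.307) or, in edgeR, without SMC2 #2 (adjusted p = 0.0538). Itgb3 lay above GFP in the SMC1 library and below it in the 4 others, by a log2 change of only -0.031 with SMC2 #2. With ERCC scaling, the log2 change of Itgb3 against GFP turned to 0.027 with CAPH2 and 0.41 with SMC2. Itga6 lay below GFP in the SMC1 library and above it in the 4 others.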

How the results depend on the processing

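Of the integrin genes, 4 rose by at least 1 with SMC1 against GFP, and this count was 7 with ERCC scaling, 2 with a pseudocount of 1 and 2 with a minimum RPKM of 1 in GFP. The counts of 2 with CAPH2 and 2 with SMC2 became 0 with the pseudocount and 0 with the minimum, and leaving out either hairpin left them at 2, with directions kept for 9 and 8 of 10 genes without CAPH2 #1 and #2 and for 10 and 8 without SMC2 #1 and #2. ERCC scaling shifted the median of all genes by 0.865 with SMC1, 0.332 with CAPH2 and 0.603 with SMC2 on the log2 scale. It kept the direction of 9 of 10 genes with SMC1 (all but Itga6) and of 7 of 10 with CAPH2 and with SMC2, where Itga5, Itgb3 and Itgb5 turned. TMM and DESeq2 size factors kept all directions. For SMC1 against the CAPH2 and SMC2 libraries, 7 integrin genes were called, 6 with DESeq2, 6 to 7 when a hairpin library was left out and 7 with the replicate block. ERCC scaling in this fit, chosen after seeing the data, gave 2, with Itga3, Itga5, Itgav and Itgb3 higher but no longer called (edgeR adjusted p from 0.113 to 0.318) and Itga6 reversed at 0.041. Over all genes it called 1403, of which 89.5% were higher, in place of 6336, of which 52.5% were higher. The standard errors were larger under this scaling, and the cause was not tested. For SMC2 against CAPH2, the 1 gene called became 5 without the filter, 6 with DESeq2, 3 with every row tested by itself, 3 with ERCC scaling, 46 with the replicate block and 1 to 323 with a library left out, the highest without CAPH2 #2. No integrin gene was called in any of these fits. The replicate numbers are different hairpins, and deviations of same-numbered libraries correlated at 0.0479. Hairpin effects enter these deviations, so the correlation cannot settle whether same-numbered libraries share a batch. Depth limits Itga2, with 2 to 20 counts per library.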
